A study of Mus musculus with 6 samples.

Results

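Mitochondrial ribosomal proteins were followed in brown adipose tissue of AdIl17rc KO and WT mice. The members are all rows of the gene table whose symbol is Mrpl or Mrps followed by a digit, which gave 77 of 24043 rows. Of these, 50 belong to the large subunit, 26 to the small subunit, and Mrps36 is now assigned to the 2-oxoglutarate dehydrogenase complex instead of the ribosome. Mrps18a and Mrps30 were placed with the large subunit, where the mammalian ribosome carries them despite their names. By ancestry, 46 members were classed as homologues of bacterial ribosomal proteins and 30 as specific to mitochondria. The second class includes Mrps18a and Mrps18b, although these are related to bacterial S18.

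The study compared polyA RNA of brown fat from C57BL6 mice, in 3 AdIl17rc KO libraries and 3 WT libraries. Il17rc encodes a subunit of the receptor for the cytokines IL-17A and IL-17F. The labels name the genotype alone. The deleting Cre, its promoter, the age and the sex of the mice stand in none of the sources used here. Nor do the labels say whether each library came from a separate animal, so the p-values reflect variation among libraries that may be technical.

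The mitochondrial ribosome translates the few proteins encoded by mitochondrial DNA, all of them subunits of the respiratory chain and ATP synthase. Its own proteins are all encoded in the nucleus, made in the cytosol and imported, and they assemble on ribosomal RNAs transcribed inside the organelle. Brown adipocytes are rich in mitochondria, which make heat through the uncoupling protein Ucp1.

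Values are FPKM, fragments scaled by transcript length and library size, so that levels can be set side by side between genes. The steps between low values put the depth at about 31.6 to 36.5 megafragments in the KO libraries and 33.5 to 39.2 megafragments in the WT libraries. Il17rc had 1.32, 0.619 and 0.530 FPKM in the KO libraries, against 3.21, 2.28 and 2.02 FPKM in the WT libraries, so the groups did not overlap, although its log2 fold change of -1.21 did not pass the test (limma, adjusted p = 0.151). Across all 10864 genes with a mean of at least 0.5 FPKM, 2 passed the adjusted threshold of 0.05, which is 0.0184% of the genes. They were the small nucleolar RNA Snord32a, higher in KO, and the pseudogene Apoo-ps, lower in KO, and they are named because the count is small. Snord32a had 333, 157 and 143 FPKM in KO and was listed at 0 in all WT libraries. Apoo-ps had at most 2e-07 FPKM in KO, against 58.1, 23.5 and 10.2 FPKM in WT. The median log2 fold change of all 10864 genes was -0.29 as deposited and -0.0017 after each library was scaled to its median gene. Every fold change of a member has to be set against this shift. Ucp1 lay between 2534 and 2979 FPKM in KO and between 1976 and 2577 FPKM in WT as deposited, which overlap. After scaling it lay between 2969 and 3129 in KO and between 1881 and 2170 in WT, without overlap, with a log2 fold change of 0.61 (limma, adjusted p = 0.177). The part of brown adipocyte content in the members' values was not tested.

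All 77 members were detected above the filter, over a 54.9-fold range of levels. Their mean FPKM over the 6 libraries ran between 3.12 and 171 with a median of 24.2, and the middle 50% lay between 14.005 and 35.1. In all, 74 of the 77 were above 5.23 FPKM, the median of all tested genes. Only 3 members, Mrps21, Mrpl42 and Mrpl30, averaged over 100 FPKM, and 10 averaged under 10 FPKM. The 5 most abundant members, among them Mrps36, carried 25.3% of the summed FPKM. The large subunit had a median of 25.6 FPKM and the small subunit a median of 23.4 FPKM. Homologues of bacterial proteins had a median of 26.4 FPKM and mitochondria-specific proteins a median of 20.4 FPKM. As a scale, 81 nuclear-encoded respiratory chain and ATP synthase subunits had a median of 291 FPKM and 81 cytosolic ribosomal proteins a median of 208 FPKM in the same libraries.

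**Figure D1:**
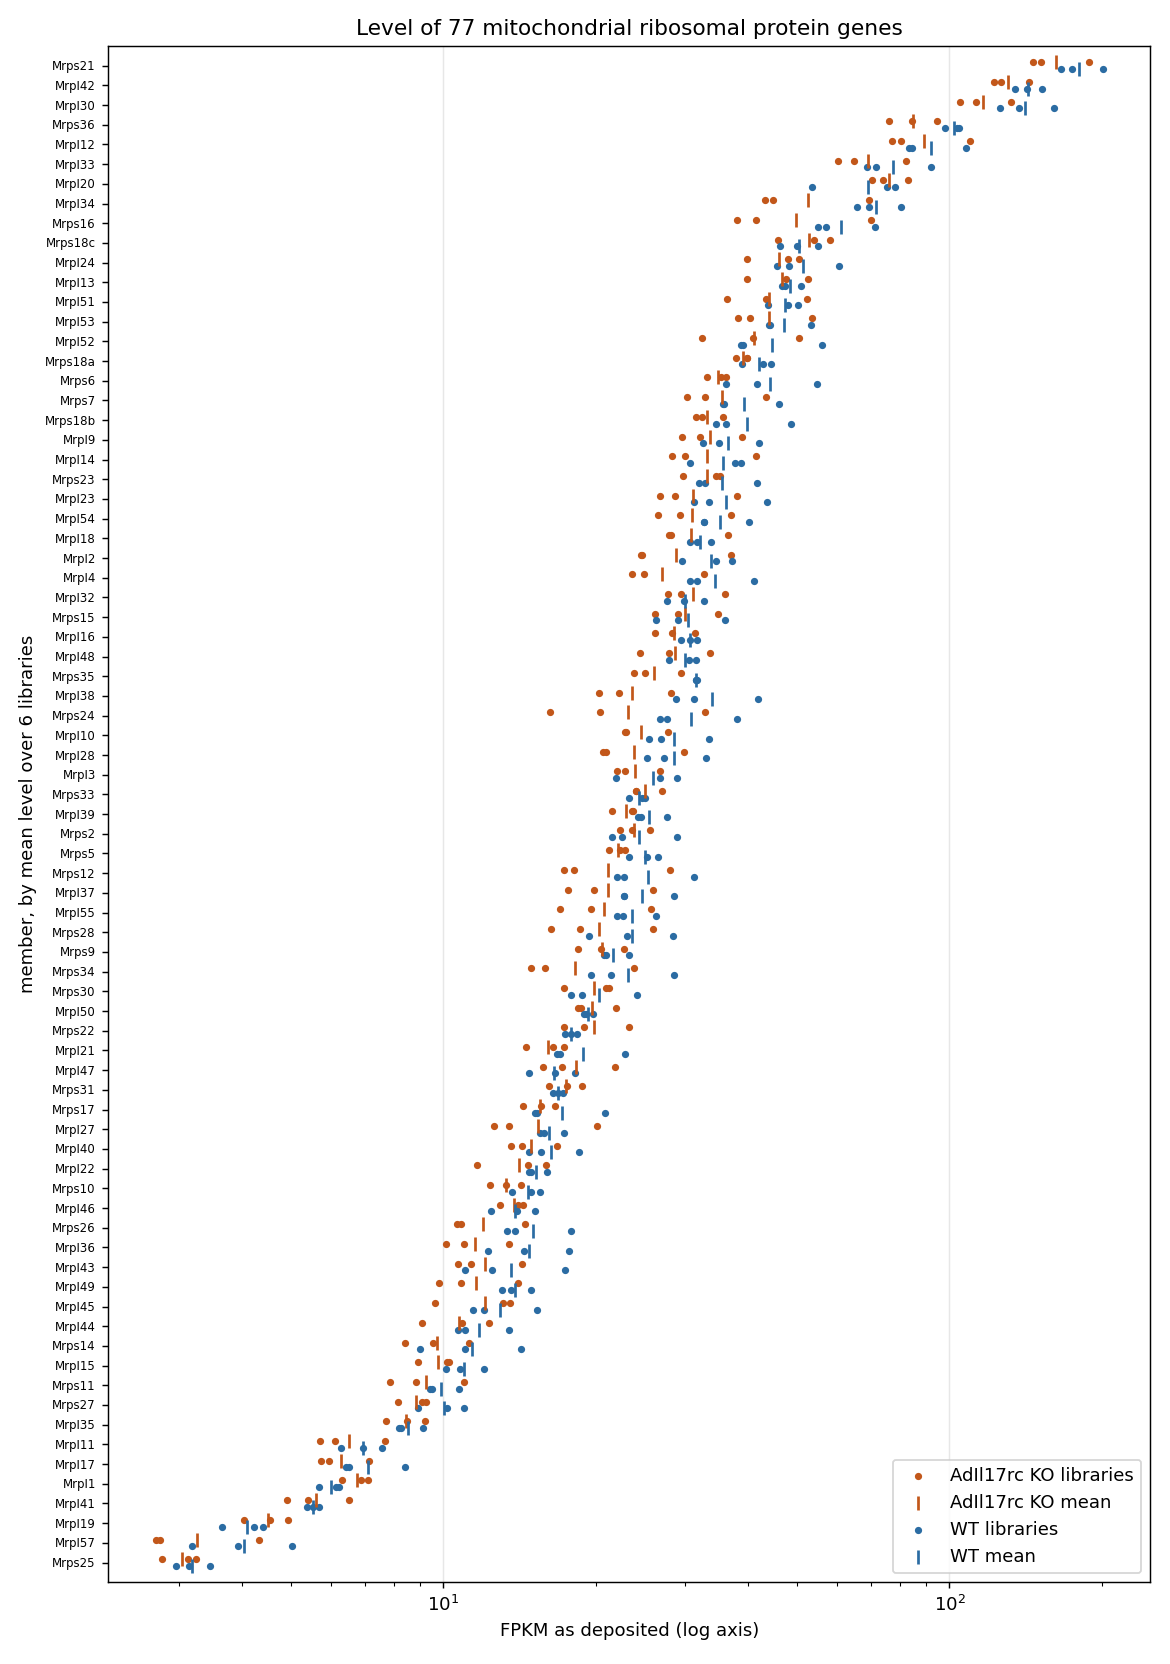
FPKM as deposited (log axis) of each of the 77 members, ordered by mean level over all 6 libraries, with a point for each KO library and, below it, each WT library, and a vertical mark for the mean of each genotype. The means over 6 libraries span 3.12 FPKM (Mrps25) to 171 FPKM (Mrps21), and the KO and WT points of most members overlap.

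The most abundant small subunit member was Mrps21, the homologue of bacterial ribosomal protein S21. Mrps21 had 188, 147 and 151 FPKM in the KO libraries, against 201, 174 and 166 FPKM in the WT libraries, and the groups overlapped. Mrps16, a homologue of bacterial S16, had 69.8, 41.5 and 38.1 FPKM in KO and 71.3, 57.04 and 54.9 FPKM in WT, so KO library 1 lay with the WT libraries. Mrps18c, one of 3 mammalian relatives of bacterial S18, had 58.2, 45.8 and 54.0 FPKM in KO and 55.1, 49.9 and 46.3 FPKM in WT. Mrps6, the homologue of bacterial S6, had 36.2, 33.2 and 35.3 FPKM in KO and 54.7, 41.6 and 36.3 FPKM in WT. The groups of Mrps6 did not overlap, but KO library 1 and WT library 3 were almost level. At the low end of the small subunit, Mrps11 averaged 9.23 ± 1.62 FPKM in KO and 9.89 ± 0.74 FPKM in WT (SD, n = 3 each). Mrps27, a pentatricopeptide repeat protein, averaged 8.82 ± 0.60 FPKM in KO and 10.03 ± 1.06 FPKM in WT (SD, n = 3 each). Mrps25, the lowest of all members, averaged 3.05 ± 0.24 FPKM in KO and 3.19 ± 0.25 FPKM in WT (SD, n = 3 each).

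In the large subunit the highest member was the mitochondria-specific Mrpl42. Mrpl42 had 143, 122 and 127 FPKM in KO, against 152, 142 and 135 FPKM in WT, and KO library 1 lay inside the WT range. Mrpl30 had 132, 105 and 113 FPKM in KO, against 161, 126 and 137 FPKM in WT. Mrpl12, which forms the stalk that recruits translation factors and in human cells also binds the mitochondrial RNA polymerase, had 110, 77.1 and 80.1 FPKM in KO, against 108, 84.2 and 83.3 FPKM in WT. In both genotypes, library 1 was the highest for Mrpl12. Mrpl33 had 82.0, 64.7 and 60.2 FPKM in KO, against 92.0, 68.7 and 71.6 FPKM in WT, again with library 1 highest in both. The 3 lowest members of the large subunit were Mrpl41, Mrpl19 and Mrpl57. Mrpl41 averaged 5.61 ± 0.82 FPKM in KO and 5.53 ± 0.15 FPKM in WT, Mrpl19 averaged 4.50 ± 0.45 FPKM in KO and 4.10 ± 0.39 FPKM in WT, and Mrpl57 averaged 3.26 ± 0.93 FPKM in KO and 4.05 ± 0.93 FPKM in WT (SD, n = 3 each). In neighbouring ranks, such as Mrpl42 and Mrpl30 or Mrpl12 and Mrps36, the per-library ranges overlapped, so their order is not resolved by these libraries. Mrps36 had 94.5, 84.2 and 75.9 FPKM in KO and 104, 97.8 and 105 FPKM in WT, without overlap, with a log2 fold change of -0.27 as deposited and 0.06 after scaling.

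As deposited, no member passed the test for genotype, and most had a small negative fold change, closer to 0 than that of the median gene. The summed FPKM of the 77 members was 2676, 2093 and 2211 in KO libraries 1, 2 and 3, against 2910, 2442 and 2409 in WT libraries 1, 2 and 3. KO library 1 thus lay inside the WT range, while KO libraries 2 and 3 lay below it. The log2 fold change was negative for 66 of 77 members, beside 87.6% of all tested genes. The members' median was -0.12, beside -0.29 for all genes, with a range of -0.51 (Mrpl38) to 0.16 (Mrpl1). It was -0.22 without KO library 1, -0.07 without KO library 2 and -0.05 without WT library 1. An unadjusted p under 0.05 was reached by 2 members, Mrpl38 and Mrpl34, both lower, beside 24.8% of all genes in that direction, and by 0 members in the other, beside 1.01%. That count of lower members was 13 without KO library 1, beside 35.2% of all genes in the same fit. It was 1 without WT library 2 or WT library 3, beside 24.5% and 21.3%, and 0 without KO library 2, KO library 3 or WT library 1, beside 10.7%, 12.2% and 12.9%. Under the adjusted threshold the count was 0 of 77, beside 0.0184% of all genes, and the smallest adjusted p of any member was 0.172. KO values lay wholly below WT values for 6 members (Mrps36, Mrps6, Mrps35, Mrpl38, Mrpl39 and Mrps5), beside 31.7% of all genes. This count was 46 without KO library 1, beside 61.6% of all genes, 46 without KO libraries 1 and 2, beside 68.6%, and 12 without WT library 2, beside 45.4%. KO values lay wholly above WT values for 1 member, Mrpl1, beside 1.25% of all genes, and for 4 members without KO library 2, beside 2.63%. In bulk tissue, fewer cells of a type and less RNA per cell cannot be told apart.

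The sign of the genotype difference turned when each library was scaled to its median gene. After scaling, 70 of 77 members had a positive log2 fold change, beside 49.6% of all genes, and 7 had a negative one (Mrpl34, Mrps16, Mrpl4, Mrpl38, Mrps24, Mrps34 and Mrpl36). The positive count was 63 without KO library 1, beside 49.2% of all genes, and 73 without KO library 2 or KO library 3, beside 50.3% and 50.7%. The negative count was then 14 or 4. The members' median was 0.20, beside -0.0017 for all genes, and the range was -0.19 (Mrpl38) to 0.48 (Mrpl20). Again 0 of 77 passed the adjusted threshold, beside 0.0184% of all genes, and the smallest adjusted p was 0.237 (limma). Over every alternative tried, the smallest adjusted p of any member lay between 0.0519 and 0.521. KO values lay wholly above WT values for 33 members, beside 12.9% of all genes, and wholly below for 1, Mrpl38, beside 12.5%. An unadjusted p under 0.05 was reached by 18 members, all with a positive fold change, beside 9.05% of all genes in that direction and 8.61% in the other. That count was 8 without KO library 3, beside 5.99% of all genes, 6 without WT library 1, beside 4.62%, and 9 without WT library 3, beside 6.99%.

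The libraries differed in how far the members stood above the median gene. Relative to each gene's WT mean, the members' median as deposited was 0.07, -0.28 and -0.18 on the log2 scale in KO libraries 1, 2 and 3, against 0.16, -0.09 and -0.09 in WT libraries 1, 2 and 3. For all tested genes these medians were -0.13, -0.35 and -0.37 in KO, against 0.21, -0.12 and -0.09 in WT. After scaling, the members' medians were 0.23, 0.11 and 0.24 in KO, with a mean of 0.19 ± 0.07, against -0.08, 0.05 and 0.00 in WT, with a mean of -0.01 ± 0.07 (SD, n = 3 each). All KO medians then lay above all WT medians, with KO library 2 and WT library 2 closest. The scaling factors were 1.003, 0.849 and 0.836 in KO and 1.33, 1.02 and 1.05 in WT, so WT library 1 was divided by the largest factor. As deposited, WT library 1 was the highest of the 6 for 52 members (67.5%), beside 72.5% of all genes. After scaling it was the lowest of the 6 for 43 members (55.8%), beside 23.8% of all genes. KO library 2 was the lowest as deposited for 50 members (64.9%), beside 30.7% of all genes, and after scaling the highest value stood in KO library 1 for 34 members (44.2%), beside 17.4% of all genes, and in KO library 3 for 36 (46.8%), beside 27.8%. Without WT library 1, the scaled median of the members was 0.15.

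**Figure D2:**
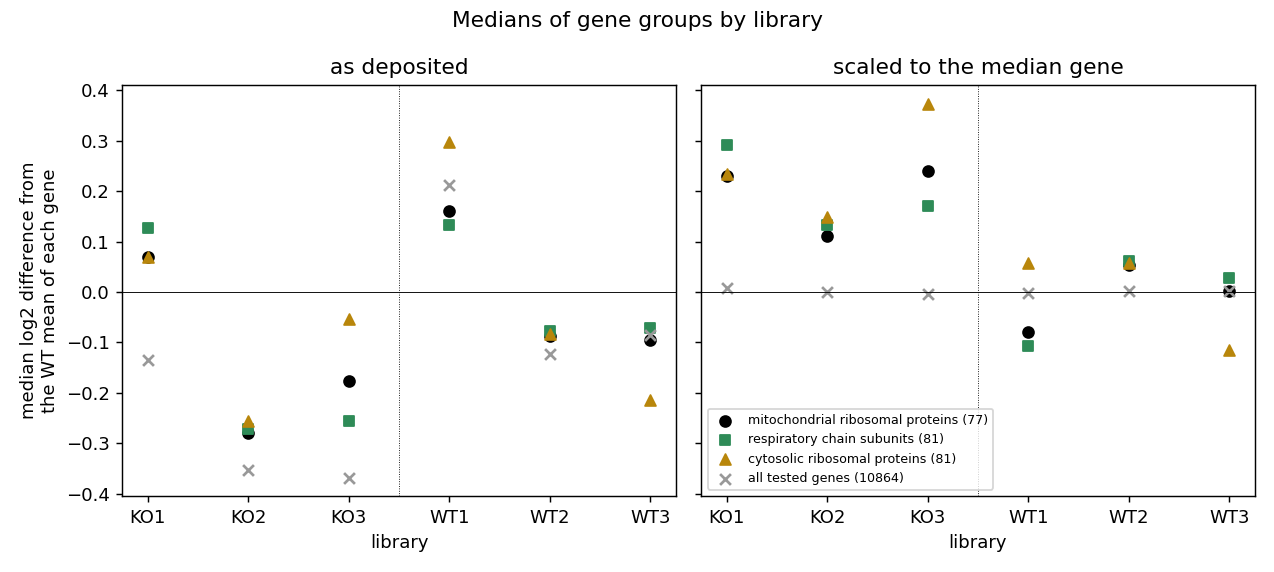
Median over the members of the log2 difference to each gene's WT mean, per library, for the KO libraries and then the WT libraries, as deposited and after scaling to the median gene, with respiratory chain subunits, cytosolic ribosomal proteins and all tested genes beside them. As deposited the members' medians of the 2 genotypes overlap (KO library 1 at 0.07), and after scaling the KO medians (0.11 to 0.24) lie above the WT medians (-0.08 to 0.05).

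Large and small subunit messages stood in nearly the same proportion in every library. The ratio of summed FPKM of the large over the small subunit was 2.02, 2.02 and 2.03 in KO, against 1.97, 2.02 and 2.03 in WT. It averaged 2.03 ± 0.008 in KO and 2.01 ± 0.03 in WT (SD, n = 3 each), and the groups overlapped. After scaling, 46 of 50 large subunit members and 23 of 26 small subunit members had a positive log2 fold change, with medians of 0.21 and 0.18. As deposited, 43 of 50 and 22 of 26 had a negative one, with medians of -0.12 and -0.15. Homologues of bacterial proteins and mitochondria-specific proteins had scaled medians of 0.18 (41 of 46 positive) and 0.21 (28 of 30 positive), and deposited medians of -0.14 and -0.12. The scaled fold changes of the 77 members had an SD of 0.14, against 0.39 for all tested genes, and their median standard error was 0.11. Levels were not matched in this comparison, and 74 of the 77 members lay above the median level of all tested genes. Of the 77, 47 lay within 1 standard error of the members' median and 72 within 2.

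**Figure D3:**
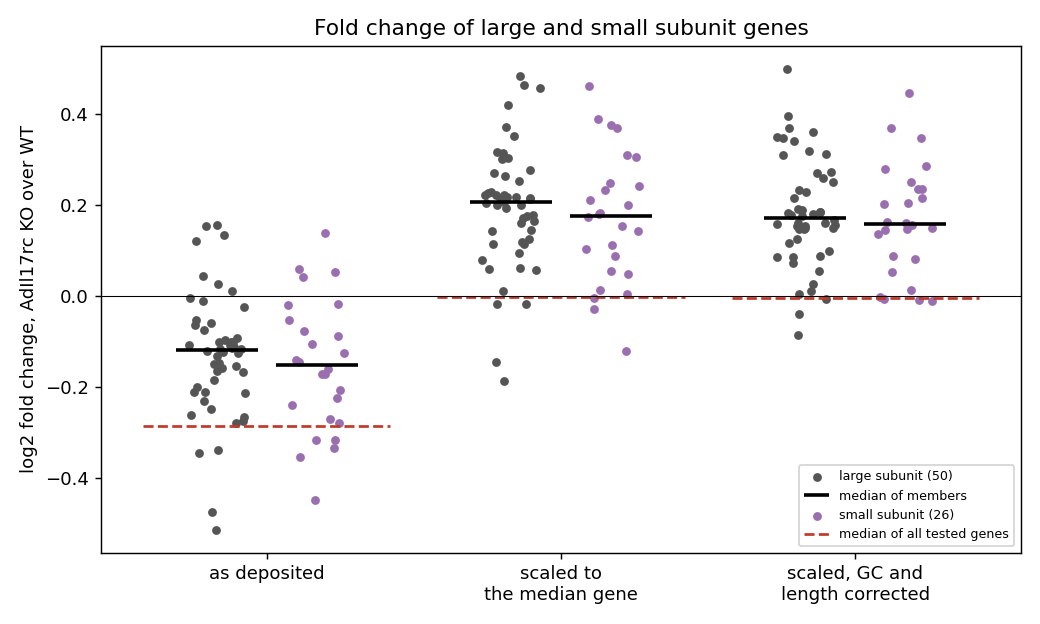
Log2 fold change (KO over WT) of the 50 large and 26 small subunit members, a point each, as deposited, after scaling to the median gene, and after the further correction for GC content and length, with the median of each subunit (solid) and of all tested genes (dashed). As deposited the subunit medians are -0.12 and -0.15, and after scaling they are 0.21 and 0.18, above the all-gene median of -0.0017.

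Among the members with the smallest p after scaling, Mrps18c had 58.0, 54.0 and 64.6 scaled FPKM in KO, against 41.4, 48.9 and 44.1 in WT. Its log2 fold change was 0.39 with a standard error of 0.11, and the adjusted p was 0.237 (limma). All KO values of Mrps18c were above all WT values after scaling, whereas as deposited the groups overlapped and the fold change was 0.06. Its paralogs Mrps18a, in the large subunit, and Mrps18b, in the small subunit, had scaled fold changes of 0.23 and 0.09, both with overlapping groups. Mrps33, specific to mitochondria, had 27.0, 28.3 and 28.8 scaled FPKM in KO and 18.8, 22.8 and 23.5 in WT, a fold change of 0.37. Mrpl20, whose bacterial homologue is needed early in assembly of the large subunit, had the largest scaled fold change of the members. Mrpl20 had 82.6, 87.2 and 84.2 scaled FPKM in KO, against 56.6, 76.4 and 50.9 in WT, a difference of 0.48 with a standard error of 0.15 (limma, adjusted p = 0.242). The KO values of Mrpl20 were close together, and the WT values were spread, with WT library 2 high. The scaled fold change was 0.38 for Mrps31, 0.42 for Mrpl19 and 0.31 for Mrps15, whose bacterial homologue binds the RNA of the small subunit. For all 3 the KO and WT values did not overlap after scaling and overlapped as deposited.

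Mrpl1, a homologue of the bacterial protein that forms the mobile stalk beside the exit site of transfer RNA, was the only member with KO above WT in every library as deposited. Mrpl1 had 6.86, 6.30 and 7.12 FPKM in KO and 5.68, 6.22 and 6.13 FPKM in WT, with KO library 2 and WT library 2 nearly level. Its log2 fold change was 0.16 with a standard error of 0.14 as deposited (limma, adjusted p = 0.441) and 0.46 with a standard error of 0.15 after scaling (adjusted p = 0.245). Mrps22, mutated in a human respiratory chain deficiency, had 18.9, 20.4 and 27.8 scaled FPKM in KO and 13.4, 17.04 and 17.5 in WT, with KO library 3 high. Mrps22 and Mrpl1 were chosen after their values were seen.

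In the other direction, Mrpl38 was the member with the most negative fold change on both scales. Mrpl38 had 28.2, 20.3 and 22.2 FPKM in KO, against 41.9, 28.8 and 31.3 FPKM in WT, with no overlap. Its log2 fold change was -0.51 with a standard error of 0.20 as deposited (limma, adjusted p = 0.172) and -0.19 with a standard error of 0.10 after scaling (adjusted p = 0.359). Mrpl34, a homologue of bacterial L34, had 69.3, 44.8 and 43.3 FPKM in KO, against 80.2, 65.6 and 69.2 FPKM in WT, and KO library 1 overlapped the WT range. Its fold change was -0.48 as deposited (limma, adjusted p = 0.193) and -0.15 after scaling. Mrps24, a homologue of bacterial S3, had 32.9, 20.4 and 16.3 FPKM in KO, against 38.1, 26.7 and 27.7 FPKM in WT, and its scaled fold change was -0.12. The scaled fold changes of Mrps34, Mrpl36, Mrpl4 and Mrps16 lay between -0.03 and -0.01, each within its standard error of 0.

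**Figure D4:**
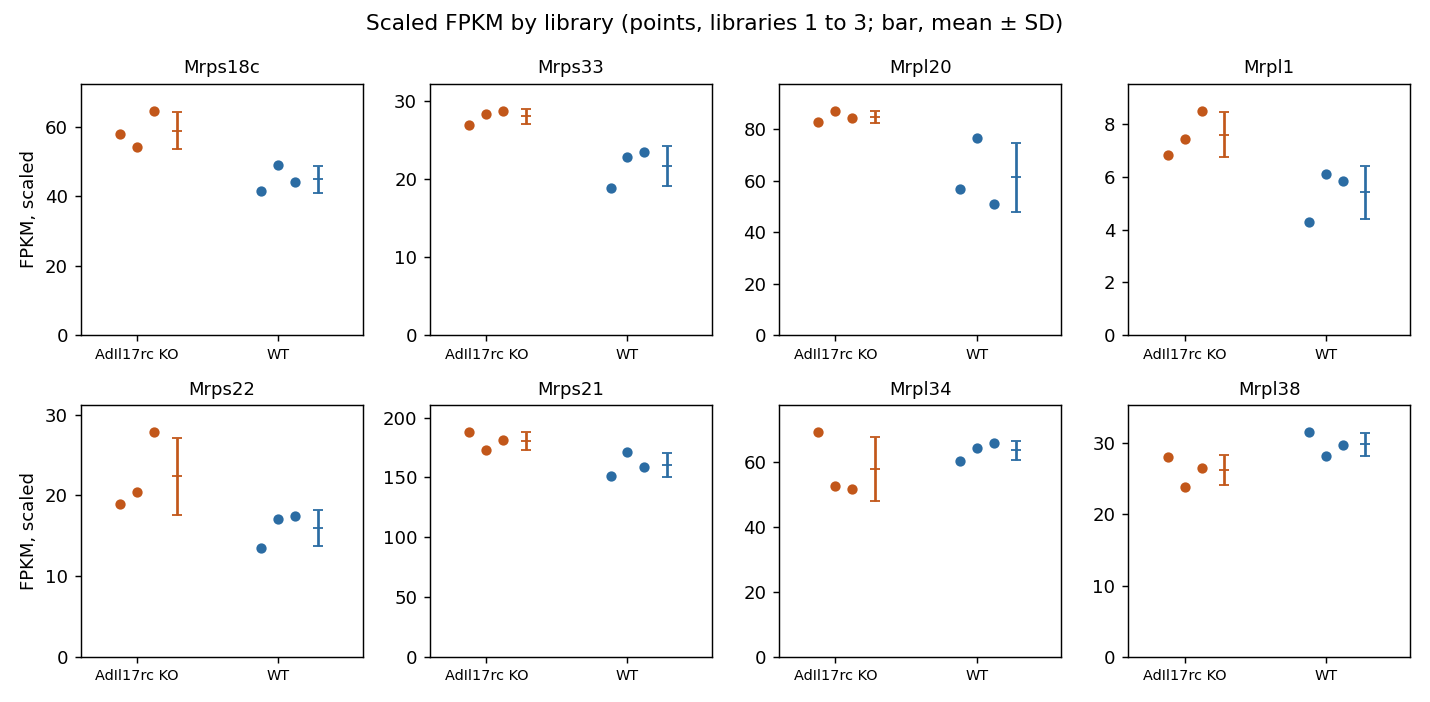
FPKM scaled to the median gene in each library, KO libraries left of WT libraries, with the group mean and SD (n = 3 each) beside the points, for 8 members, each on an axis that starts at 0. The KO points of Mrps18c, Mrps33 and Mrpl20 lie above their WT points, and those of Mrpl38 lie below.

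The members' fold changes varied with base composition, as did those of all genes. The members' transcripts had a GC content of 40.6% to 60.8% with a median of 51.3%, against 50.7% for all tested genes, and a median length of 849.5 bases, against 1314 bases. The members with a positive fold change among the most AT-rich were Mrpl32 (40.6% GC) and Mrpl1 (41.4% GC), whereas Mrps34 (60.6%), Mrps24 (60.3%), Mrpl4 (59.95%) and Mrpl38 (59.1%) were among the 7 with a negative scaled fold change. The relation had exceptions: Mrpl54, the most GC-rich member (60.8%), had a scaled fold change of 0.14, and Mrpl14 (58.9%) had one of 0.21. Mrps16 (51.1%) and Mrpl36 (54.0%), nearer the members' median GC content, were also among the 7 negative members. Over the 77 members, which share the 6 libraries, Spearman's rho between scaled fold change and GC content was -0.48, and over all genes with a GC value it was -0.43. After GC content and length were fitted and removed in each library, rho was 0.06 over the members. The members' median was then 0.16, beside -0.0048 for all genes, with 69 of 77 positive, beside 48.9% of all genes. KO values lay wholly above WT values for 34 members, beside 12.2% of all genes, and wholly below for 0, beside 12.1%. In that fit 0 members passed the adjusted threshold, beside 0.00926% of all genes, and 22 had an unadjusted p under 0.05, all positive, beside 8.03% of all genes in that direction and 8.45% in the other. The fold change was -0.09 for Mrpl38, whose groups then overlapped, -0.04 for Mrpl34 and 0.50 for Mrpl20, the highest again.

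**Figure D5:**
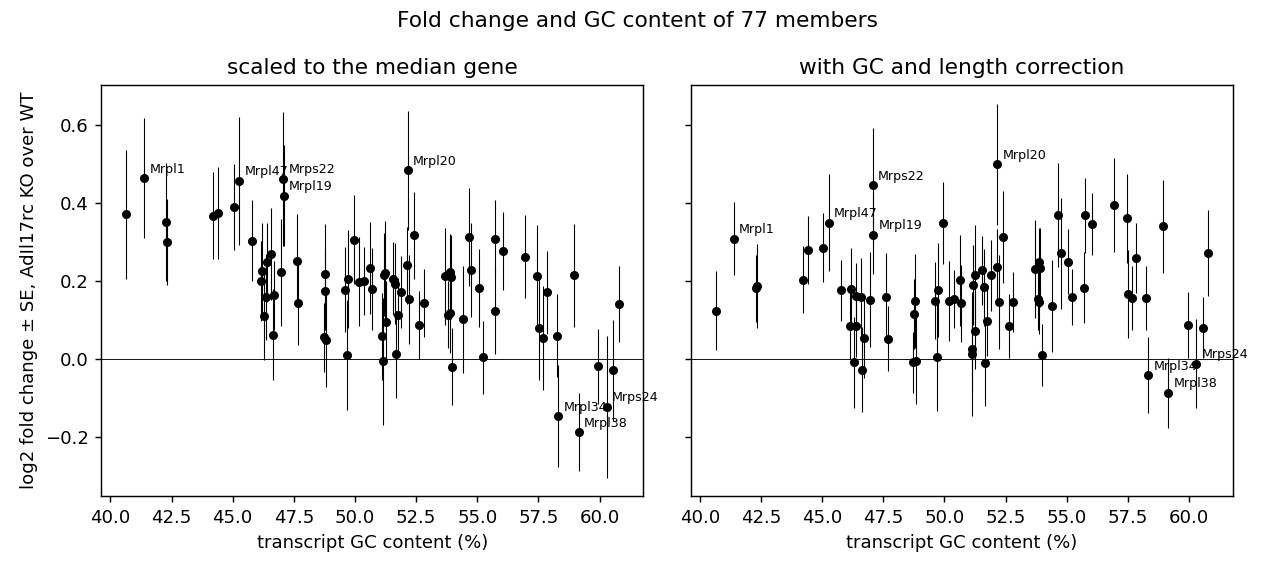
Log2 fold change (KO over WT) of each member against the GC content of its transcripts in percent, after scaling and after the further correction for GC content and length. Before the correction rho over the 77 members was -0.48 and after it 0.06.

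Promoter sequence was examined because the members are nuclear genes with similar fold changes. RefSeq windows on GRCm38.p6, running from 250 bases before to 50 bases after each start, were matched by symbol for 68 of the 77 members. The ETS core CCGGAAG, read on both strands and bound by factors such as Gabpa, stood in the windows of 25 members (36.8%), beside 21.1% of 8158 tested genes and 9.93% of all 27025 genes with a window. The core AAGATGG of YY1, a zinc finger factor, stood in 13 members (19.1%), beside 8.76% of tested genes and 7.28% of all. The core GCATGCG of NRF1, a factor for nuclear genes of the respiratory chain, stood in 8 members (11.8%), beside 7.62% of tested genes and 4.01% of all. CCAAT stood in 27 members (39.7%), beside 42.3% of tested genes and 41.1% of all, and TATAAA in 5 members (7.35%), beside 8.85% of tested genes and 15.7% of all. At least 1 of the ETS, NRF1 and YY1 cores stood in 37 of 68, and no ETS match overlapped a YY1 or NRF1 match. The members with and without the ETS core had the same scaled median fold change of 0.20, and median levels of 29.3 FPKM with it and 22.9 FPKM without it. A match is a description of letters and not of binding.

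The windows of 4 members are shown 5′ to 3′ on the strand of the gene, with ETS, NRF1 or YY1 cores in capitals in either orientation. They are Mrps21, the most abundant member (chr3:95871465-95871764, minus strand), Mrps18c, with the smallest p after scaling (chr5:100798509-100798808, plus strand), Mrpl34, one of the 2 members with an unadjusted p under 0.05 as deposited (chr8:71464676-71464975, plus strand), and Mrpl1, the member with KO above WT on both scales (chr5:96209865-96210164, plus strand).
Mrps21: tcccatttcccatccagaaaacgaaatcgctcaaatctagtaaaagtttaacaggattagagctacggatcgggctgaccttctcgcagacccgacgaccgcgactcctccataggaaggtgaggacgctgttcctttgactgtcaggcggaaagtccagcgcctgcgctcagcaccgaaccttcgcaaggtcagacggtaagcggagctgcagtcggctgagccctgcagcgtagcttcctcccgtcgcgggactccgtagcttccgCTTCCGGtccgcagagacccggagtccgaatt
Mrps18c: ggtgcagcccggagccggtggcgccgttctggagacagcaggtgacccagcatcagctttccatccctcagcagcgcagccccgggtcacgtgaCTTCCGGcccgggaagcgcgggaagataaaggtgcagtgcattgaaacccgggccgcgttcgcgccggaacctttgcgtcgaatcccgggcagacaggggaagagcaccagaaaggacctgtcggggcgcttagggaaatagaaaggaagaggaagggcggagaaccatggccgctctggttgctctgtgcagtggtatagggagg
Mrpl34: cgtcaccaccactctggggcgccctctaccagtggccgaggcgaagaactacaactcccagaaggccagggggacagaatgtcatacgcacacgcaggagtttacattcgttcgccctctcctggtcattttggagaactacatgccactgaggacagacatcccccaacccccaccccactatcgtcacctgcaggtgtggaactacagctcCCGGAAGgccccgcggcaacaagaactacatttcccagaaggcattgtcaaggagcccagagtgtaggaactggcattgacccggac
Mrpl1: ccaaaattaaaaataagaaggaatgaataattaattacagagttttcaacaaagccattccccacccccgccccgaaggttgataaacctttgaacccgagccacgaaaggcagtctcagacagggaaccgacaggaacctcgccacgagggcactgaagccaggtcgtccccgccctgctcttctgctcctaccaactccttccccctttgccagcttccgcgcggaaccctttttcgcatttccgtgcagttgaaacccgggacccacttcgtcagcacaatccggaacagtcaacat
Mrps21 and Mrps18c carry the ETS core in the reverse orientation, CTTCCGG, Mrpl34 carries it in the forward orientation, and the Mrpl1 window holds none of the 3 cores.

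Many members lie close to other genes. In the GENCODE vM21 annotation, used for names and neighbours only, 18 of 77 (23.4%) had a coding gene starting head to head within 1000 bases, beside 10.8% of 10031 tested coding genes. These pairs include Mrps12 with Sars2, the mitochondrial seryl-tRNA synthetase, Mrps18c with the helicase gene Helq, and Mrpl32 with the proteasome subunit Psma2. Exons of 23 members (29.9%) overlap exons of another coding gene, among them Mrps6 with Slc5a3, Mrps34 with Nme3 and Mrps24 with Urgcp on the same strand, and Mrps11 with Mrpl46 on the opposite strand. The share of all tested coding genes with such an overlap was not counted. No source used here gives the strand setting of the counting, so the split of fragments between overlapping genes is uncertain.

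The rest of the mitochondrial translation machinery was compared through lists of known function. All 5 listed ribosomal proteins under other names (Dap3, Ptcd3, Chchd1, Aurkaip1 and Gadd45gip1) had a negative fold change as deposited. All had a positive one after scaling, with a scaled median of 0.24. The list may not be complete. Chchd1 had 55.9, 50.3 and 51.6 FPKM in KO, against 59.5, 54.0 and 50.7 FPKM in WT, a scaled fold change of 0.28. Those of Ptcd3, a pentatricopeptide repeat protein of the small subunit, and of Aurkaip1 were 0.29 and 0.24. Corrected for GC content and length, Ptcd3 was at 0.04 and Aurkaip1 at 0.33. Of 25 tested assembly factors, 21 were positive after scaling with a median of 0.10, and 21 were negative as deposited. The rRNA methyltransferases Rnmtl1 and Ftsj2 and the assembly factor Mterfd1 had scaled fold changes of 0.33, 0.36 and 0.46. Corrected for GC content and length, these were 0.37, 0.45 and 0.21. Of 17 translation factors, 12 were positive after scaling with a median of 0.13, and 16 were negative as deposited. Among them, Slirp, an RNA-binding partner of Lrpprc that stabilises mitochondrial messages, had 88.2, 66.4 and 89.4 FPKM in KO, against 87.7, 72.4 and 71.7 FPKM in WT. Lrpprc, added after its values were seen, went the other way, with 20.6, 18.7 and 18.1 FPKM in KO, against 29.5, 23.1 and 26.4 FPKM in WT. It lay below WT in every library on both scales, with log2 fold changes of -0.44 as deposited and -0.12 after scaling. The initiation factor Mtif2 and the release factor Mtrf1 both had a scaled fold change of 0.21. Corrected for GC content and length, Mtif2 was at 0.07 and Mtrf1 at 0.15. No gene of these 3 lists passed the test on either scale (limma, smallest adjusted p 0.165 as deposited and 0.245 after scaling). After scaling, 1 of the 5 ribosomal proteins, 3 of 25 assembly factors and 1 of 17 translation factors had an unadjusted p under 0.05. All of them had a positive fold change, beside 9.05% of all genes in that direction.

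Mitochondrial aminoacyl-tRNA synthetases charge the organelle's transfer RNAs. Of 20 genes in their list, 14 were positive after scaling with a median of 0.11, and 17 were negative as deposited. The list also holds Pet112, Gatc and Qrsl1, subunits of an amidotransferase that is not a synthetase. Their scaled fold changes were 0.10, 0.07 and 0.16. Cars2 had 83.1, 97.0 and 70.0 FPKM in KO, against 103, 51.8 and 50.5 FPKM in WT, so WT library 1 was the highest of all as deposited. Sars2 and Mars2, for serine and methionine, had scaled fold changes of 0.29 and 0.22. Corrected for GC content and length, Sars2 was at 0.46 and Mars2 at 0.02. Lars2, chosen after its values were seen, had 110, 530 and 34.3 FPKM in KO, against 94.2, 49.2 and 43.4 FPKM in WT. KO library 2, with the high Lars2 value, also held the table's Mir6236 row at 146487 FPKM, against 7499 to 19971 FPKM in the other libraries. Of 15 tested genes of mitochondrial DNA replication and transcription, 10 were positive after scaling with a median of 0.06, and 11 were negative as deposited. Tefm, the mitochondrial transcription elongation factor, had 4.56, 4.68 and 5.27 FPKM in KO, against 3.44, 3.19 and 4.19 FPKM in WT, above WT in every library on both scales. Its log2 fold change was 0.38 as deposited (limma, adjusted p = 0.180) and 0.68 after scaling (adjusted p = 0.234). The scaled fold change was 0.26 for Tfam, which packages mitochondrial DNA, and 0.42 for Tfb2m, a subunit of the initiating polymerase complex. Correction for GC content and length lowered these to 0.05 and 0.18. The 12 regulators of mitochondrial gene expression were all negative as deposited, with a median of -0.43, and 8 of 12 were negative after scaling, with a median of -0.12. Pprc1, a coactivator related to PGC-1, had 7.26, 6.61 and 6.68 FPKM in KO, against 13.9, 10.2 and 9.47 FPKM in WT, below WT in every library on both scales, with log2 fold changes of -0.65 as deposited and -0.33 after scaling. Its relative Ppargc1b had a scaled fold change of -0.24, and Gabpa, the ETS factor of many mitochondrial genes, one of 0.30. Correction for GC content and length brought Ppargc1b to -0.02, Gabpa to 0.01 and the median of the 12 regulators to -0.02. No gene of these 3 lists passed the test on either scale (limma, smallest adjusted p 0.151 as deposited and 0.234 after scaling). After scaling, 1 of 20 genes of the synthetase list and 3 of 15 genes of replication and transcription had an unadjusted p under 0.05. All of them were positive, beside 9.05% of all genes in that direction. The same was reached by 1 of 12 regulators, negative, beside 8.61%. Genes encoded by mitochondrial DNA, among them those for the products of this ribosome, were not found under the symbols searched and were not analysed here.

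Nuclear genes of the respiratory chain, whose complexes contain the products of this ribosome, and of the cytosolic ribosome gave similar medians. After scaling, 76 of 81 respiratory chain subunits were positive with a median of 0.20, and 75 of 81 cytosolic ribosomal proteins with a median of 0.23. KO values lay wholly above WT values for 47 and 42 of them, beside 33 of 77 members, and wholly below for 1 in each list. An unadjusted p under 0.05 (limma) with a positive fold change was reached by 28 and 33 of them, beside 18 members. With a negative fold change it was reached by 0 and 1. The ratio of summed FPKM of the members over respiratory chain subunits, which does not depend on scaling, was 0.0633, 0.0638 and 0.0655 in KO, against 0.0673, 0.0644 and 0.0644 in WT. The ratio over cytosolic ribosomal proteins was 0.128, 0.126 and 0.116 in KO, against 0.119, 0.129 and 0.141 in WT. The groups overlapped for both ratios. No difference between the members and these lists was tested.

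Some libraries differed in cell content. The summed FPKM of 12 skeletal muscle markers was 316, 546 and 10.7 in KO, against 8.83, 13.0 and 48.2 in WT, and all 12 had a positive fold change. Actn3, Ckm, Myh1 and Pvalb were listed at 0 in WT libraries 1 and 2. In KO library 3, with little muscle RNA, the scaled median of the members relative to the WT mean was 0.24, from 1 library. Without KO libraries 1 and 2, a comparison added after the data were seen that uses the same values of that library, 63 of 77 were positive, beside 49.4% of all genes. The sum of 8 brown adipocyte markers was 5162, 4540 and 4205 FPKM in KO, against 4720, 4297 and 4005 FPKM in WT. Ucp1 was the largest part of that sum. Gene by gene, 3 of the 8 had a positive fold change as deposited and 5 a negative one, with a median of -0.19. After scaling, 6 were positive and 2 negative, with a median of 0.14. Endothelial markers summed to 165, 106 and 106 FPKM in KO and to 282, 158 and 180 FPKM in WT, and fibroblast markers to 90.2, 86.8 and 73.9 FPKM in KO and to 98.2, 114 and 170 FPKM in WT. All these sums are as deposited. After scaling, 7 of 7 endothelial markers and 4 of 7 fibroblast markers had a negative fold change, with medians of -0.25 and -0.14. For both lists the scaled medians per library overlapped between the genotypes. The part of these cell types in the members' values was not tested.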

How the data were processed

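PolyA RNA of brown adipose tissue was sequenced in 3 AdIl17rc KO and 3 WT libraries. The authors deposited 1 table of FPKM values. STAR 2.5.1b, Cufflinks 2.2.1, DESeq2 1.10.1 and build mm9 are named in the submitters' processing notes. The sources used here give no annotation, strand setting or rule for reads with several matches. The 27 rows whose symbols had become dates were left out. Values were tested as log2(FPKM + 0.5) for 10864 genes with a mean of at least 0.5 FPKM, with limma 3.58.1 in R 4.3.3 (empirical Bayes with trend, two-sided, Benjamini-Hochberg over all tested genes, threshold 0.05), and fold changes on this scale understate low genes. The method was tested on simulated data. The same fit was repeated after median-of-ratios scaling, and after removal of GC content and length (natural splines, 4 degrees of freedom each, GENCODE vM21 on GRCm38) for 10802 genes. FPKM keeps no totals, so depth is an approximation, from the commonest step size (the worth of 1 read) in genes that have 1 transcript in GENCODE. Exact permutation of 3 against 3 values cannot go below p = 0.1. Named genes were the highest and lowest members of each subunit, up to 6 per direction with the smallest p after scaling, Mrps36, up to 3 per other list, and Il17rc. The members and lists were chosen with earlier results of these data known.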

Additional observations from a re-analysis of the deposited data

How the results depend on the processing

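No member passed the adjusted threshold under any alternative tried, and the smallest adjusted p of a member was 0.0519, with a replicate block as deposited. The direction of the members depended on the scaling: the median of their log2 fold changes was -0.12 in the deposited values, 0.20 after median-of-ratios scaling (with and without the replicate block), 0.14 after quantile normalization and 0.16 with GC and length correction (with and without the block). The number of negative members was 66, 7, 16 and 8 in the same order, and that of negative genes of the other mitochondrial translation lists was 82, 28, 29 and 26. Leaving out 1 library gave medians of -0.22 to -0.05 as deposited, and after scaling medians of 0.18, 0.22 and 0.17 without KO libraries 1, 2 and 3 and of 0.15, 0.21 and 0.19 without WT libraries 1, 2 and 3, with 7, 8, 9, 4 or 14 negative members and 28 or 29 negative list genes. As deposited, leaving out 1 library left 53 to 70 negative members. Without KO libraries 1 and 2 after scaling, the median was 0.24 with 14 negative members and 31 negative list genes. The count of all genes past the threshold was 2, and it was 1 with no filter, with the replicate block (with or without scaling or GC correction) and with GC correction alone, 14 with robust empirical Bayes and 263 at a common FPKM sum, where Mir6236 alone stood at 146487 FPKM in KO library 2. Leaving out 1 library gave 1 to 61 as deposited and 1 to 24 after scaling, and leaving out KO libraries 1 and 2 gave 9 and 7. Of 44 single-gene fold changes, 20 turned from negative to positive with scaling, 17 with quantile normalization and 21 with GC and length correction, and 0 turned the other way. Il17rc passed the threshold only at the common sum (limma, adjusted p = 0.0044). Replicate numbers were checked for pairing: KO and WT libraries of the same number had correlated deviations of 0.10, -0.12 and -0.081. The WT library closest to KO libraries 1, 2 and 3 was 1, 3 and 2. A correlation over genes does not register a shift shared by all genes of a library. This check therefore could not settle whether the numbers pair the libraries. As deposited, the median of all tested genes was highest in library 1 in both genotypes. With the block as deposited, 11 members had an unadjusted p under 0.05, all lower, beside 41.4% of all genes, against 2 without it, beside 24.8%. With 3 libraries per group and a median standard error of 0.11 after scaling, differences of the size seen here were not resolved gene by gene.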
